A study of Sus scrofa with 6 samples.

Results

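RING finger ubiquitin ligases named RNF and the E2 ubiquitin enzymes named UBE2 were described across oocytes of prepubertal gilts. The members were the rows of the gene table with a name of RNF and a number, or a name that starts with UBE2, and with at least 10 counts in at least 3 of the 6 libraries. That gave 86 genes of the 19296 rows, 59 of them RNF and 27 UBE2. Another 9 rows had such a name and fell under the minimum (RNF125, RNF135, RNF150, RNF152, RNF165, RNF186, RNF223, RNF39 and UBE2QL1).

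RNA was sequenced from oocytes freed of their cumulus cells, of 2 groups with 3 libraries each. The first group came from large follicles of 3 to 6 mm and the second from small follicles of 1.5 to 1.9 mm, both from ovaries of abattoir animals with no treatment named. The follicle size is the contrast, since the series set oocytes of different developmental competence side by side. Each library was made from a pool of denuded oocytes, and the labels call the libraries of a group replicates without saying whether they came from separate collections of ovaries. The p-values therefore reflect how far these libraries vary among themselves, and that variation may be technical.

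Ubiquitin is passed along a chain of enzymes: an E1 activates it, an E2 carries it on a cysteine, and an E3 ligase brings the loaded E2 to the protein to be marked. Most RNF proteins are E3 ligases whose RING domain binds the E2, while a few UBE2 proteins carry relatives of ubiquitin (such as NEDD8 or ISG15) or lack the cysteine and act as partners. In oocytes the pathway is known for the destruction of cyclin B and securin through the anaphase-promoting complex, for the marking of histones and for the removal of maternal proteins.

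Total counts were 8015357 to 56887282 in large-follicle and 33298449 to 55342036 in small-follicle libraries, and the lowest was large-follicle library 3. That library stood apart on the first principal component, with a score of 54.5 against -15.0 to -6.03 in the other libraries. All 12 oocyte markers were present, with a summed level of 15946 to 18027 CPM (counts in every 1000000, scaled by library size and composition) in large-follicle and 19961 to 21157 CPM in small-follicle libraries. Summed granulosa and cumulus markers were 159 to 251 CPM in large-follicle oocytes, against 143 to 248 CPM in small-follicle libraries, with 11 of 14 listed genes in the table. Theca and stromal markers, 9 of 9 in the table, summed to 36.8 to 41.5 CPM in large-follicle libraries and 45.2 to 46.9 CPM in small-follicle libraries. Blood, immune and endothelial markers, 9 of 10 in the table, summed to 6.17 to 8.87 CPM in large-follicle libraries and 6.60 to 7.19 CPM in small-follicle libraries. None of the markers in the table was at 0 in all libraries. The oocyte and the theca and stromal sums did not overlap between the groups, and their part in the results below was not tested. Nor was the part of the low depth of large-follicle library 3, beside which values without that library are given.

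The E2 transcripts were abundant. The median UBE2 gene stood at 87.9 TPM (transcripts in every 1000000, the deposited level per gene length, as a mean over the 6 libraries), the median RNF gene at 55.1 TPM and the median of all 14091 genes tested at 18.4 TPM. A mean of at least 100 TPM was reached by 13 of 27 UBE2 and 17 of 59 RNF genes, against 16.4% of all genes tested. No UBE2 gene and 4 RNF genes (RNF128, RNF144A, RNF213 and RNF217) had a mean under 1 TPM. The 5 most abundant UBE2 genes held 56.3% to 58.9% of the summed UBE2 level in each library, and the 5 most abundant RNF genes 37.9% to 39.3% of the summed RNF level.

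**Figure D1:**
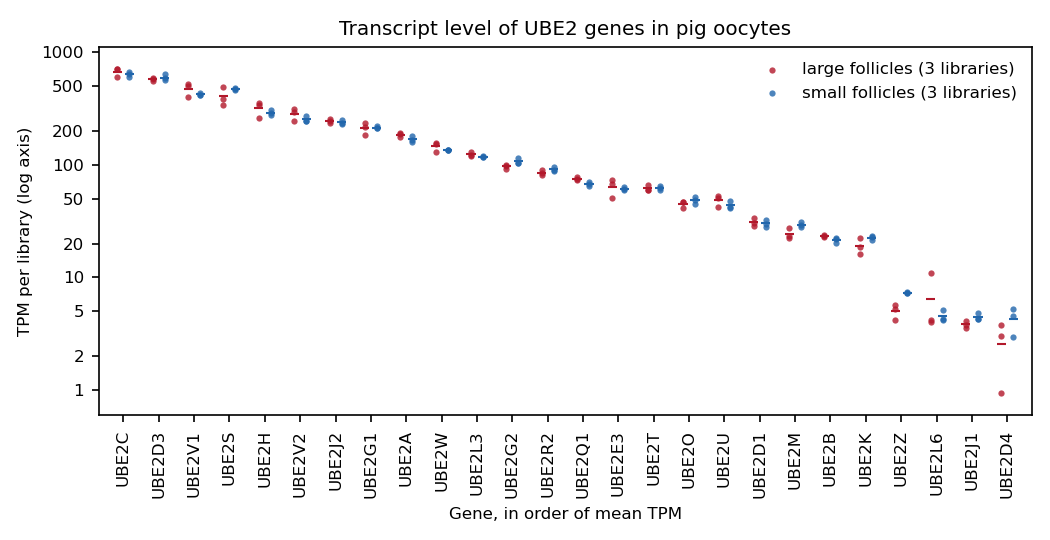
TPM of 26 UBE2 genes on a log axis, in order of the mean. Points are libraries and dashes group means, red for large and blue for small follicles. UBE2C and UBE2D3 stand at the left in both groups, UBE2D4 is the lowest, and the large-follicle libraries lie wide apart for UBE2S and UBE2L6.

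The E2s of the anaphase-promoting complex were among the most abundant. UBE2C, which places the first ubiquitins on substrates of that complex, stood at 706, 698 and 592 TPM in large-follicle oocytes, against 665, 629 and 595 TPM in small-follicle libraries 1, 2 and 3. UBE2S, which lengthens the chains that UBE2C starts, stood at 339, 382 and 489 TPM in large-follicle oocytes, against 475, 453 and 466 TPM in small-follicle libraries. The ratio of UBE2C to UBE2S levels was 1.71 ± 0.447 in large-follicle and 1.36 ± 0.0677 in small-follicle oocytes (SD, n = 3 each), and the libraries spanned 1.21 to 2.08. UBE2C lies on chromosome 17 from 48018403 to 48021542 in assembly Sscrofa11.1.

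UBE2D3, an E2 that works with very many RING ligases, stood at 571, 549.5 and 583 TPM in large-follicle oocytes, against 558, 629.9 and 580.1 TPM in small-follicle libraries. It was 17.4 to 20.6 times as abundant as its relative UBE2D1 over the libraries. Levels per length rest on the authors' gene models: CPM over TPM gives UBE2D3 a model 2.02 times as long as the median gene's, and UBE2C one of 0.213 times.

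UBE2V1 and UBE2V2 lack the catalytic cysteine and pair with UBE2N to build chains used in DNA damage and immune signalling. No row has the name UBE2N, so that partner was not measured under its own name. UBE2V1 stood at 518, 493 and 398 TPM in large-follicle oocytes, against 414.5, 409 and 434 TPM in small-follicle libraries, and UBE2V2 at 308, 294 and 245 TPM in large-follicle oocytes, against 244, 242 and 270.0 TPM in small-follicle libraries. The ratio of UBE2V1 to UBE2V2 levels was 1.66 ± 0.0309 in large-follicle and 1.67 ± 0.0504 in small-follicle oocytes (SD, n = 3 each). UBE2A, one of the paired E2s related to yeast Rad6, was 7.89 ± 0.269 times as abundant as its relative UBE2B in large-follicle and 7.82 ± 0.439 times in small-follicle oocytes.

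Among RNF genes RNF34 was the most abundant. This ligase, which is known to bind caspases, stood at 706, 628 and 630 TPM in large-follicle oocytes, against 651, 671.5 and 716 TPM in small-follicle libraries. It was followed by RNF20, which with RNF40 forms the ligase for histone H2B, at 579, 559.9 and 482 TPM in large-follicle oocytes, against 458, 427 and 479.5 TPM in small-follicle libraries. RNF114 averaged 389 ± 21.5 TPM in large-follicle oocytes, against 403 ± 6.92 TPM in small-follicle oocytes (SD, n = 3 each), and RNF139, a ligase of the endoplasmic reticulum membrane, 327 ± 14.5 TPM in large-follicle oocytes, against 316 ± 7.39 TPM in small-follicle oocytes. RNF126, which acts in the quality control of cytosolic proteins, averaged 271 ± 19.9 TPM in large-follicle oocytes, against 276 ± 5.96 TPM in small-follicle oocytes. RNF10 averaged 269 ± 22.0 TPM in large-follicle oocytes, against 243 ± 11.6 TPM in small-follicle oocytes. RNF20 was 5.33 ± 0.635 times as abundant as its partner RNF40 in large-follicle and 4.35 ± 0.0425 times in small-follicle oocytes.

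**Figure D2:**
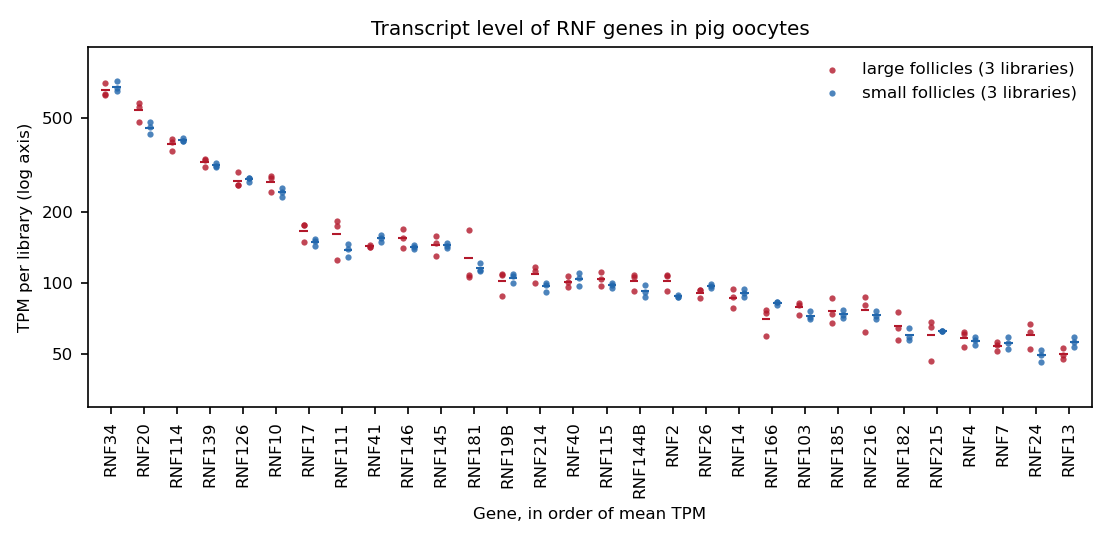
TPM of 30 abundant RNF genes on a log axis, in order of the mean. Points are libraries and dashes group means, red for large and blue for small follicles. RNF34 and RNF20 lead, and 1 large-follicle library lies far above the other 2 for RNF181 and below them for RNF111.

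No RNF gene and no UBE2 gene passed the comparison of large with small follicles. With the quasi-likelihood test of edgeR, adjusted after Benjamini and Hochberg over 14091 genes, 0 of 59 RNF and 0 of 27 UBE2 genes passed an adjusted p of 0.05. Of all genes 0.0639% passed, 0.0142% as higher and 0.0497% as lower in large-follicle oocytes. At an unadjusted p under 0.05 there were 8 RNF genes (6 higher and 2 lower in large-follicle oocytes) and 3 UBE2 genes (1 higher and 2 lower). The background at that p was 18.0% of all genes tested, with 9.85% higher and 8.17% lower. DESeq2 gave an adjusted p under 0.05 to 1 of 51 RNF genes (RNF123) and 1 of 25 UBE2 genes (UBE2Z), both lower in large-follicle oocytes, against 7.03% of 10266 genes, with 3.9% higher and 3.14% lower. Reads are shares of a pooled library, so a lower value can stem from fewer cells with a transcript or from less of it per cell, and these cannot be told apart.

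The differences of the members were small. The median log2 difference (large minus small) was 0.018 over the RNF genes and 0.026 over the UBE2 genes, beside 0.0039 over all genes tested. With scaling to library size alone these medians were -0.035, -0.024 and -0.049. A higher mean in large-follicle oocytes was fitted for 30 of 59 RNF, 15 of 27 UBE2 and 7155 of all 14091 genes tested. An absolute log2 difference under 0.25 was fitted for 49 of 59 RNF and 23 of 27 UBE2 genes, that is 83.1% and 85.2%, against 69.6% of all genes. Their SE had a median of 0.094 for RNF and 0.092 for UBE2 genes, against 0.125 for all genes. The summed level of the RNF genes was 5233 to 5865 TPM in large-follicle oocytes, against 5318 to 5583 TPM in small-follicle libraries. That of the UBE2 genes was 4728 to 4978 TPM in large-follicle oocytes, against 4761 to 4826 TPM in small-follicle libraries, so both sums overlapped.

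**Figure D3:**
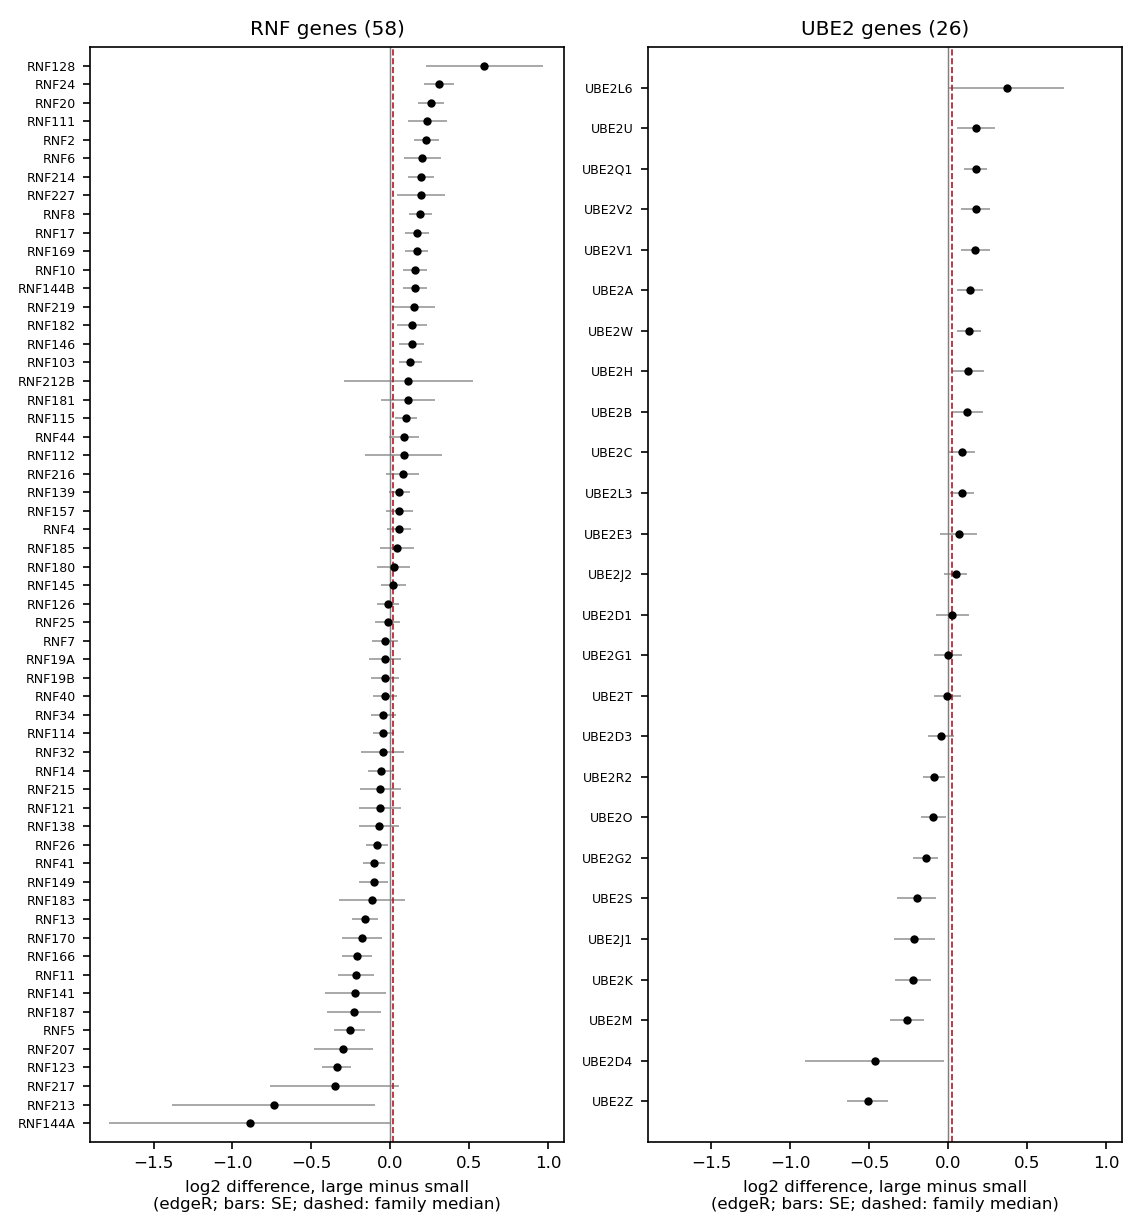
Fitted log2 difference (large minus small follicles) of 58 RNF and 26 UBE2 genes, with bars for the SE and a dashed line at the median of all members of the family. Most genes lie within 0.25 of 0, and the widest bars belong to genes with few reads, such as RNF144A, RNF213 and UBE2D4.

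**Figure D4:**
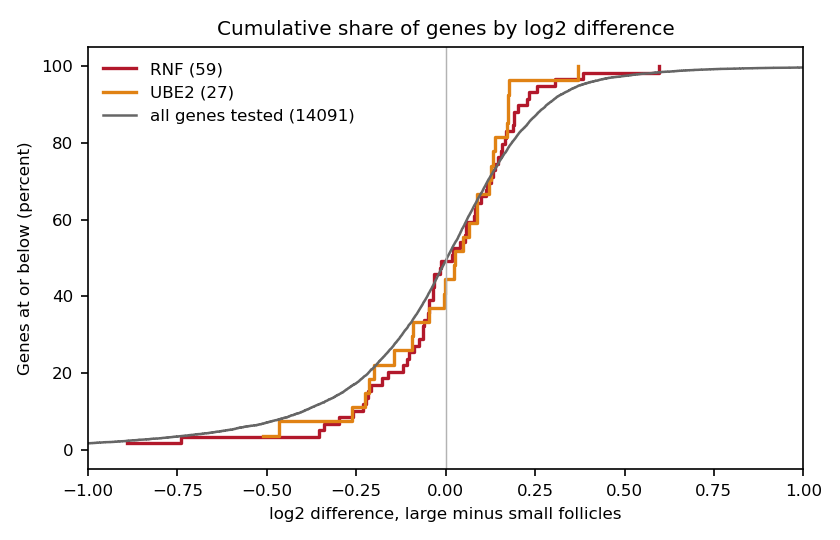
Cumulative percentage of genes by log2 difference (large minus small follicles) for the RNF genes, the UBE2 genes and all genes tested. The curves of both families are steeper around 0 than that of all genes.

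The RNF ligases of chromatin and DNA damage had the highest median difference of the RNF role lists. Of 9 measured members 7 had a higher and 2 a lower mean, the median log2 difference was 0.17, 0 passed the adjusted test and 4 had an unadjusted p under 0.05 (RNF20, RNF2, RNF8 and RNF169), all higher, against 9.85% of all genes tested that were higher at that p. Of these 4, only RNF20 was under that p without small-follicle library 1 or 3, and only RNF2 without small-follicle library 2. No test was made over the list, which was chosen with earlier results of these data known. RNF20 stood at 755, 709.9 and 637 CPM in large-follicle oocytes, against 586, 560.1 and 614 CPM in small-follicle libraries. The lowest large-follicle library lay above the highest small-follicle library, and the log2 difference was 0.26 (SE 0.0815; adjusted p = 0.159 by edgeR's quasi-likelihood test). RNF40, its partner, averaged 190.2 ± 8.04 CPM in large-follicle oocytes, against 195 ± 10.7 CPM in oocytes of small follicles (SD, n = 3 each), with overlapping groups.

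RNF2, the ligase subunit of Polycomb repressive complex 1 that marks histone H2A, stood at 167, 160.0 and 144 CPM in large-follicle oocytes, against 132, 138 and 132.5 CPM in small-follicle libraries. The groups did not overlap, and the log2 difference was 0.23 (SE 0.077; adjusted p = 0.174 by edgeR). RNF8, a ligase recruited to DNA breaks, stood at 90.1, 95.3 and 99.1 CPM in large-follicle oocytes, against 84.2, 79.7 and 85.3 CPM in small-follicle libraries, without overlap. RNF169, which binds ubiquitin marks at breaks, stood at 77.9, 73.5 and 74.7 CPM in large-follicle oocytes, against 65.8, 67.4 and 68.4 CPM in small-follicle libraries, also without overlap. RNF111, a ligase known from TGF-beta signalling, stood at 298, 276 and 206 CPM in large-follicle oocytes, against 222, 211 and 233 CPM in small-follicle libraries, and there large-follicle library 3 was below all others. RNF4, which binds proteins that carry SUMO chains, differed by 0.055 (SE 0.077) on the log2 scale.

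Of the RNF genes 8 lay wholly higher and 6 wholly lower in large-follicle libraries, which is 23.7% of 59, and of the UBE2 genes 1 lay wholly higher and 4 wholly lower, which is 18.5% of 27. Among all genes tested 23.7% had groups that do not overlap, 12.1% higher and 11.6% lower.

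Membrane ligases of the RNF family had members on both sides. RNF24, a membrane protein, stood at 44.2, 46.4 and 38.0 CPM in large-follicle oocytes, against 34.9, 33.4 and 36.5 CPM in small-follicle libraries, and the groups did not overlap (log2 difference 0.31, SE 0.094; adjusted p = 0.151 by edgeR). RNF5, a ligase of the endoplasmic reticulum that marks misfolded proteins, stood at 13.2, 14.6 and 14.3 CPM in large-follicle oocytes, against 16.9, 16.2 and 17.3 CPM in small-follicle libraries (log2 difference -0.26, SE 0.098; adjusted p = 0.215 by edgeR). Of the 12 measured members of this list 7 had higher and 5 lower means, with a median of 0.019 and 0 past the adjusted test. Of the 3 ligases with a protease-associated domain within the rule (RNF13, RNF128 and RNF149) 1 had a higher and 2 a lower mean, and 0 passed. RNF167, of the same list, has an Ensembl row outside the rule. It differed by -0.63 (SE 0.093) and is described further below.

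RNF ligases of the RING-between-RING kind take ubiquitin over from the E2 onto their own cysteine. Of the 7 within the rule 2 had a higher mean and 5 a lower one, with a median of -0.034 and 0 past the adjusted test. RNF31, of the same kind, has an Ensembl row outside the rule. It differed by -0.75 (SE 0.11) and is described further below. RNF144A had the lowest fitted value of all members, at -0.89, but with an SE of 0.89. It had 4, 25 and 12 reads in large-follicle and 109, 32 and 7 reads in small-follicle libraries, so its groups overlapped widely.

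RNF123, a ligase known for the breakdown of the cell cycle inhibitor p27, had the smallest p among the RNF genes. It stood at 98.7, 94.0 and 79.3 CPM in large-follicle oocytes, against 121, 108 and 116 CPM in small-follicle libraries. All large-follicle libraries lay below all small-follicle libraries, with a log2 difference of -0.34 (SE 0.094; adjusted p = 0.125 by edgeR and 0.0193 by DESeq2). RNF123 lies on chromosome 13 from 32216761 to 32250742. RNF214 and RNF166 were also among the 10 RNF genes with the smallest p, with log2 differences of 0.19 (SE 0.081) and -0.21 (SE 0.096). RNF213 differed by -0.74 (SE 0.64), with 1.97 ± 0.700 CPM in large-follicle oocytes, against 3.14 ± 2.55 CPM in oocytes of small follicles.

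UBE2Z, an E2 that is loaded by the E1 enzyme UBA6, had the smallest p of the UBE2 genes. It stood at 7.46, 7.96 and 6.05 CPM in large-follicle oocytes, against 10.2, 10.7 and 10.3 CPM in small-follicle libraries. Each large-follicle library lay below each small-follicle library, and the log2 difference was -0.51 (SE 0.13; adjusted p = 0.108 by edgeR and 0.0311 by DESeq2). UBE2Z lies on chromosome 12 from 25122072 to 25141144. UBE2M, the E2 that carries NEDD8 to the cullins, stood at 26.1, 24.6 and 31.5 CPM in large-follicle oocytes, against 30.6, 34.9 and 31.9 CPM in small-follicle libraries (log2 difference -0.26, SE 0.11; adjusted p = 0.251 by edgeR). Large-follicle library 3 alone reached into the range of the small-follicle libraries. UBE2Q1 stood at 80.6, 75.8 and 77.5 CPM in large-follicle oocytes, against 65.5, 70.3 and 71.6 CPM in small-follicle libraries, without overlap (log2 difference 0.17, SE 0.074; adjusted p = 0.260 by edgeR).

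In the other E2 groups edgeR's adjusted test also called 0 genes, and DESeq2 called UBE2Z alone. Of the 5 measured E2s of chromatin and DNA damage 4 had higher means in large-follicle oocytes, with a median log2 difference of 0.14. UBE2V2 differed by 0.17 (SE 0.0915), UBE2V1 by 0.17 (SE 0.093), UBE2A by 0.14 (SE 0.082) and UBE2B by 0.12 (SE 0.098), while UBE2T, the E2 of the Fanconi anaemia pathway, differed by -0.0055 (SE 0.083). Of the 5 E2s listed for quality control at the endoplasmic reticulum and for degradation chains 1 had a higher and 4 a lower mean, with a median of -0.14. There UBE2K differed by -0.22 (SE 0.11), UBE2G2 by -0.14 (SE 0.0775) and UBE2J1 by -0.21 (SE 0.13), the last at 5.62 ± 0.424 CPM in large-follicle oocytes, against 6.53 ± 0.422 CPM in oocytes of small follicles.

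Of the cell cycle E2s UBE2C differed by 0.088 (SE 0.084), UBE2S by -0.20 (SE 0.12) and UBE2R2, which serves cullin ligases, by -0.092 (SE 0.0705). UBE2S stood at 139, 152 and 203 CPM in large-follicle oocytes, against 191, 187 and 187 CPM in small-follicle libraries, so large-follicle library 3 was above the small-follicle range and the other large-follicle libraries were below it. UBE2D3 differed by -0.046 (SE 0.080) and UBE2D1 by 0.026 (SE 0.11). Among the remaining E2s UBE2H, the partner of the CTLH ligase, differed by 0.13 (SE 0.10), UBE2W, which marks the amino terminus of proteins, by 0.13 (SE 0.077) and UBE2L3 by 0.087 (SE 0.074). Of these 7 remaining E2s 5 had a higher and 2 a lower mean. Of the 4 D and E family E2s within the rule 2 had a higher and 2 a lower mean, and of the 3 carriers of ubiquitin relatives 2 and 1. In these groups 0 passed edgeR's adjusted test. DESeq2 called UBE2Z, one of the 7. UBE2D2, UBE2E1 and UBE2E2 of the D and E families have Ensembl rows outside the rule. They differed by 0.026 (SE 0.10), 0.054 (SE 0.088) and 0.29 (SE 0.20), with overlapping groups. UBE2L6, the E2 for ISG15, stood at 1.94, 1.97 and 5.31 CPM in large-follicle oocytes, against 2.42, 2.01 and 2.02 CPM in small-follicle libraries, and was named after its values were seen.

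**Figure D5:**
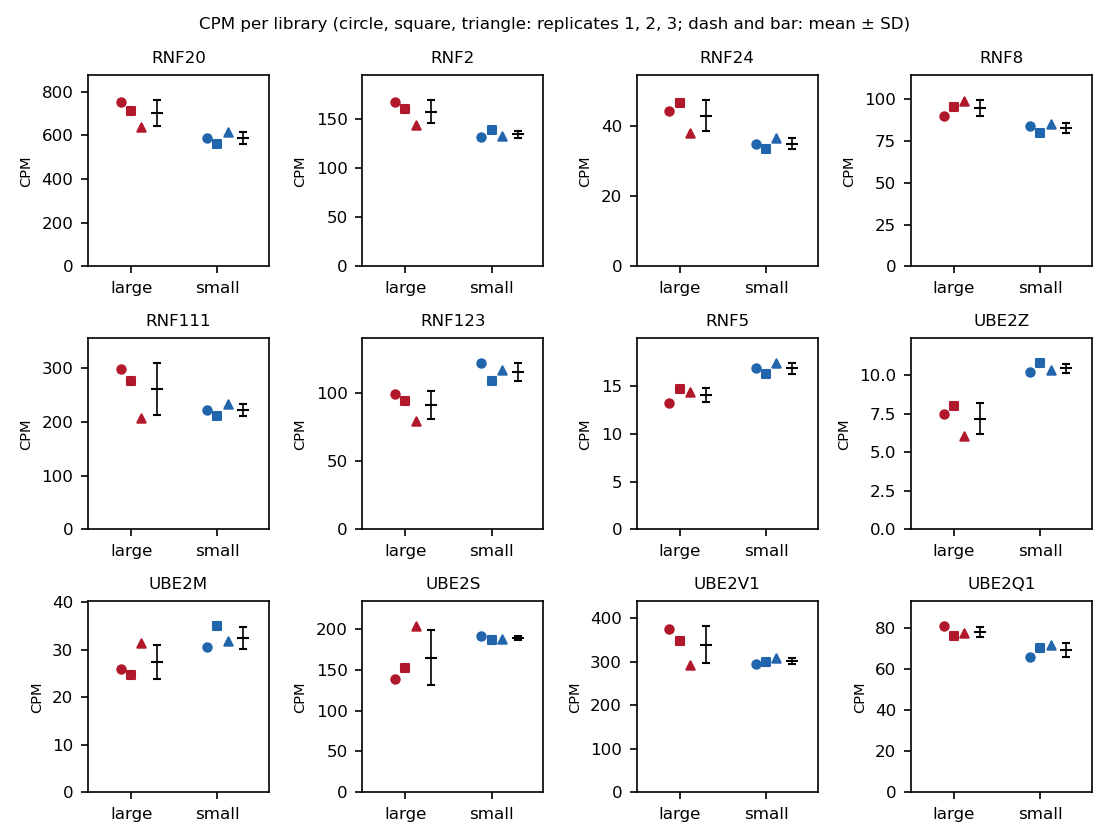
CPM of 7 RNF and 5 UBE2 genes in each library, with large follicles on the left and small follicles on the right of each panel. The dash and bar give the mean and SD. For RNF111, UBE2M, UBE2S and UBE2V1 the triangle, large-follicle replicate 3, lies on the side of the small follicles.

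Without large-follicle library 3, the shallowest, 8 RNF and 5 UBE2 genes passed edgeR's adjusted test in 2 large-follicle against 3 small-follicle libraries. These are 13.6% and 18.5% of the members, beside 13.2% of all 14429 genes tested there, 7.79% as higher and 5.37% as lower. Of the RNF genes 7 rose, RNF20, RNF2, RNF24, RNF111, RNF17 and RNF219 among them, and RNF123 fell; of the UBE2 genes UBE2V1 and UBE2H rose and UBE2Z, UBE2M and UBE2S fell. RNF24 rose by a log2 difference of 0.37 (adjusted p = 0.0163 by edgeR) and UBE2S fell by 0.38 (adjusted p = 0.00962 by edgeR). RNF17, a Tudor protein needed in the germ line of male mice, and RNF219 were named after their values were seen. RNF17 stood at 266, 260.5 and 228.5 CPM in large-follicle oocytes, against 226, 218 and 228 CPM in small-follicle libraries, and RNF219 at 59.2, 55.0 and 38.3 CPM in large-follicle oocytes, against 44.7, 46.8 and 47.7 CPM in small-follicle libraries. DESeq2 called 14 RNF and 7 UBE2 genes there, against 21.6% of 11631 genes.

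Without any other single library edgeR called 0 RNF and 0 UBE2 genes. Of all genes it then called 0.533% without large-follicle library 1 and 0.0% without large-follicle library 2 or any 1 small-follicle library. At an unadjusted p under 0.05 there were 3 to 10 RNF and 1 or 2 UBE2 genes, beside 19.3% and 13.2% of all genes without large-follicle libraries 1 and 2, and 10.9%, 10.0% and 13.5% without small-follicle libraries 1, 2 and 3. DESeq2 called RNF123 and UBE2K, both lower in large-follicle oocytes, without large-follicle library 1, beside 6.58% of genes. It called 0 members without large-follicle library 2 (2.23% of genes) or without small-follicle library 1 (1.11%), 2 (1.12%) or 3 (1.78%).

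The rest of the pathway held no passing gene either. In 9 lists with 134 tested genes edgeR's adjusted test called 0, with 19 higher and 13 lower at an unadjusted p under 0.05 (background 18.0%), while DESeq2 called 5 higher and 3 lower, beside 3.9% and 3.14% of all genes. HERC1, a giant HECT ligase, differed by 0.74 (SE 0.15; adjusted p = 0.0849) and UBE3C, a HECT ligase that extends chains at the proteasome, by -0.71 (SE 0.13; adjusted p = 0.0812), by edgeR's quasi-likelihood test. HECT ligases had 17 higher and 8 lower means of 25. Over all genes tested 7155 means were higher and 6936 lower. Of 8 tested genes of ubiquitin and its relatives 5 had a higher and 3 a lower mean. Of the E1 enzymes 6 of 7 had a lower mean, NAE1, of the NEDD8 E1, differing by -0.27 (SE 0.11) and ATG7 by -0.22 (SE 0.10).

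Of the anaphase-promoting complex and its regulators 6 had a higher and 9 a lower mean of 15. FBXO5, its inhibitor, differed by 0.18 (SE 0.066) and CDC23 by -0.97 (SE 0.30). CDC23 stood at 0.504 CPM in large-follicle oocytes, against 1.05 CPM in oocytes of small follicles. Of 21 genes of cullin ligases 14 had a higher mean, with CUL5 at 0.29 (SE 0.078) and DTL at 0.26 (SE 0.082). Of 15 Polycomb partners of RNF2, 6 had a higher mean, with PHC3 at 0.30 (SE 0.091) and CBX2 at -0.75 (SE 0.21). CBX2 was low, at 1.38 CPM in large-follicle oocytes, against 2.36 CPM in oocytes of small follicles. Of 30 further ligases, not all of them RING ligases, 21 had a higher mean, with XIAP at 0.33 (SE 0.090) and STUB1 at -0.43 (SE 0.16). Of 6 E2 and E2-like genes with other names 5 had a higher mean, with BIRC6 at 0.31 (SE 0.13) and AKTIP at 0.066 (SE 0.068). Of 7 other RING-between-RING genes and partners 3 had a higher mean, with CUL9 at -0.56 (SE 0.15) and SHARPIN at -0.29 (SE 0.097).

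Rows that the table names by an Ensembl identifier are outside the rule, and 8 of them with enough reads have an RNF or UBE2 symbol in a name table. RNF31, the catalytic subunit of the complex that builds linear ubiquitin chains, stood at 53.5, 43.8 and 38.2 CPM in large-follicle oocytes, against 76.3, 76.7 and 77.0 CPM in small-follicle libraries. The groups did not overlap (log2 difference -0.75, SE 0.11; adjusted p = 0.0660 by edgeR and 2.4e-07 by DESeq2), and RNF31 is a partner of SHARPIN. RNF167, a ligase of endosomes and lysosomes, stood at 23.0, 22.9 and 26.5 CPM in large-follicle oocytes, against 36.3, 35.6 and 39.1 CPM in small-follicle libraries, also without overlap (log2 difference -0.63, SE 0.093; adjusted p = 0.0649 by edgeR and 5.88e-06 by DESeq2). The other 6 (UBE2NL, UBE2E1, UBE2E2, UBE2D2, RNF113A and RNF220) had overlapping groups. The row given the symbol UBE2NL stood at 626 ± 32.4 TPM in large-follicle oocytes, against 608 ± 43.5 TPM in small-follicle oocytes, near UBE2C. E2 genes have close relatives and processed copies, between which the authors' counting could share reads.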

How the data were processed

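The authors deposited whole-number read counts per gene and TPM values for each library, per the file headers, with TPM (transcripts in every 1000000) adding to 1000000 in each. Per the submitters' processing notes, reads belong to build Sscrofa11.1. Per the labels' protocols the kit keeps strand. How reads were aligned and counted, and whether strand was used, is not given in the sources used here. Rows with a date as name (25 of 19296, a mean of 0.153% of reads) were left out. A name table holds symbols for 875 of the 4604 rows named by Ensembl identifiers, of which 853 were used. Of the 86 members 84 were placed by symbol with RefSeq genes of Sscrofa11.1.

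Differences were tested by quasi-likelihood in edgeR 4.0.16 (R 4.3.3) on counts of all genes, with TMM, filterByExpr and robust estimation on group alone. All 86 members passed the filter. The SE is the absolute log2 difference over the square root of F, and p-values were adjusted by Benjamini-Hochberg over 14091 genes. DESeq2 1.42.0 was an alternative, as were other scalings and filters, a replicate block and leaving out each library. An adjusted p that DESeq2 left empty stayed out of its counts. Levels between genes were compared in TPM.

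Within each group all pairs of libraries differed beyond counting error, with 10.4 to 22.2 as the ratio of chi-square to degrees of freedom. The script was tested on simulated data of large against small follicles with 13939 genes: it found 31 of 67 at a fold of 1.5, 53 of 67 at 2 and 54 of 66 at 3, and made 12 false calls. All simulated libraries had the same mean per gene apart from the set changes. The departure of large-follicle library 3 was thus not modelled, and these shares need not hold for the real libraries. The members and lists were chosen with earlier results of these data known. The text names the 10 RNF and 10 UBE2 genes with the smallest p, the 6 of each with the highest TPM and a fixed set of genes, and 2 genes per list outside the members. A few items that this rule picks are not reported here.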

Additional observations from a re-analysis of the deposited data

How the results depend on the processing

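The count of all genes called was 9, and it was 0 with DESeq2's size factors in edgeR (2525 at an unadjusted p under 0.05), 14 when scaled by library size, 722 with DESeq2's test, 52 with no filter, 19 at a mean of at least 5 CPM and 24 with the replicate block. Leaving out each library gave 0 to 1899. Under these settings the counts of RNF and UBE2 genes called stayed at 0, except 1 each with DESeq2 and, without single libraries, 0 to 8 for RNF and 0 to 5 for UBE2, the highest without large-follicle library 3. The other pathway genes called were 8 with DESeq2 and 0 to 32 without single libraries, the highest again without that library. With library size alone the median log2 difference was -0.035 for RNF and -0.024 for UBE2 genes, beside -0.049 for all genes. Without single libraries the RNF median ranged from -0.021 to 0.038 and the UBE2 median from -0.030 to 0.042.

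For the 37 named members, 419 of 443 values under 12 alternatives kept direction and side of the threshold, 12 newly passed (10 without large-follicle library 3 and 2 with DESeq2) and 12 changed sign. UBE2D1 turned to -0.025 with library size alone and -0.0080 at 5 CPM. Without single libraries the ranges were -0.052 to 0.098 for UBE2D1, -0.061 to 0.014 for RNF126, -0.081 to 0.0052 for RNF40, -0.068 to 0.032 for UBE2T, -0.089 to 0.010 for UBE2D3 and -1.16 to 0.16 for RNF213. None of these genes passed in any setting. Replicate numbers are shared by the groups, but same-numbered libraries did not deviate together (correlations of -0.095, 0.0028 and -0.16 over 14091 genes), so the block pairs by number only. Counting error is largest in large-follicle library 3 and for genes under 1 CPM.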
